A study of Mus musculus with 144 samples.

Results

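Aldehyde dehydrogenases oxidize reactive aldehydes to acids. The 10 genes followed here are listed members of this family, chosen by name with earlier results of these data known. All 10 were found by symbol among the 55359 genes of the count files. They are *Aldh1a1*, *Aldh1a7*, *Aldh1b1*, *Aldh1l1*, *Aldh2*, *Aldh3a1*, *Aldh3a2*, *Aldh4a1*, *Aldh6a1* and *Aldh8a1*, and 11 further *Aldh* genes served only as a comparison list. Hepatocytes hold the family at high levels because the liver clears acetaldehyde from ethanol, retinal, lipid peroxidation aldehydes and the semialdehydes formed when amino acids are broken down. Cytosolic forms handle retinal and folate intermediates, mitochondrial forms handle acetaldehyde and amino acid carbon, and a membrane form handles long-chain fatty aldehydes. *Aldh3a1* is the member best known as a target of the aryl hydrocarbon receptor (AHR), the receptor that binds dioxin (2,3,7,8-tetrachlorodibenzo-p-dioxin, or TCDD).

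Transcript levels were measured by RNA-Seq in libraries of primary hepatocytes, isolated from male mice 28 days of age and kept on type I collagen. The libraries formed 36 groups of 4 that crossed a genotype label (wild-type C57BL/6NCrl, abbreviated WT, or Pkm-delta-DRE, labelled DRE-null and written PkmΔDRE), a treatment (10 nM TCDD or DMSO vehicle alone) and 9 times after treatment, 5 of them within the first day (2 to 24 h) and the others daily from 48 to 120 h. PkmΔDRE denotes 1 mutant mouse line in which genome editing removed an intronic dioxin response element (DRE), the AHR binding motif, from the pyruvate kinase gene *Pkm*, and all cultures received dexamethasone. The labels do not say which libraries came from the same liver, so genotype label and isolation cannot be told apart, and p-values measure the spread between these libraries, which may be technical.

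Read pairs assigned to genes ranged from 13588848 to 30719161 in a library (median 18011825). A level is given as CPM, the counts scaled to a common total after each library's total of such pairs was multiplied by edgeR's TMM normalization factor. In WT vehicle these factors were 0.612 to 0.689 at 2 h and 1.24 to 1.42 at 120 h. Falls between these hours are therefore larger, and rises smaller, than on plain totals. Libraries P172_80 and P172_104 stood apart. Library P172_80, labelled PkmΔDRE vehicle at 4 h, correlated best with the other libraries of 96 h (r = 0.976, against 0.763 with its own hour, over 12243 genes), and library P172_104, labelled PkmΔDRE vehicle at 96 h, correlated best with those of 4 h (r = 0.978 against 0.758). *Cyp1a1*, a sensitive AHR target that checks the treatment labels, stood at 3285 CPM in library P172_21 and 1717 CPM in library P172_31, both labelled WT vehicle, and at 1.15 CPM in library P172_40 and 29.2 CPM in library P172_64, both labelled WT and TCDD. Of the other libraries, 25 lay nearest to an hour 1 step from their own, and library P172_97 (PkmΔDRE vehicle, 72 h) to 120 h. *Pkm* went against the genotype labels. At 12 h it read 26.9 to 54.2 CPM in vehicle and 29.2 to 89.7 CPM in TCDD libraries labelled WT, and 37.0 to 52.4 CPM and 93.7 to 201 CPM in those labelled PkmΔDRE. Averaged over the hours, the log2 fold change of *Pkm* with TCDD was 0.61 in PkmΔDRE (SE 0.16, adjusted p = 0.0156) and −0.26 in WT (SE 0.17, adjusted p = 0.228), with libraries P172_80 and P172_104 in the fit. At 96 h it fell in WT, by a log2 fold change of −0.73 (adjusted p = 0.00376). Groups are therefore called by their labels, and the direction of every genotype comparison rests on them. The hepatocyte marker *Alb* was at 1967 CPM or more in every library. Markers of other liver cells were present as well, among them the cholangiocyte genes *Spp1* (up to 1204 CPM) and *Krt19* (up to 300.2 CPM), *Cdh5* of endothelial cells (13.2 to 224 CPM) and *Cd14* of macrophages (18.04 to 389 CPM), while *Ptprc*, carried by all leukocytes, reached at most 1.95 CPM. Other markers of these lists were low, with medians of 0.982 CPM for *Epcam* and 0.74 for *Krt7* (cholangiocyte), 1.16 for *Clec4g* (endothelial) and 3.2 for *Adgre1* (macrophage). Stellate cell and fibroblast markers had medians from 0.274 CPM (*Lrat*) to 3.68 CPM (*Dcn*).

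RefSeq start-site windows in GRCm38.p6, 250 bases before and 50 bases after the start, were at hand for 8 members, the exceptions being *Aldh2* and *Aldh3a1*. The 4 shown belong to the members that rose with TCDD at an hour of the WT label (*Aldh6a1* and *Aldh8a1*) and to the other members whose window holds the DRE core. The core was searched as GCGTG and its reverse complement CACGC on both strands, and capitals mark it. The windows lie at chr12:84450975-84451274 on the minus strand for *Aldh6a1*, chr10:21377050-21377349 on the plus strand for *Aldh8a1*, chr11:61267137-61267436 on the minus strand for *Aldh3a2* and chr4:139622644-139622943 on the plus strand for *Aldh4a1*.
Aldh6a1: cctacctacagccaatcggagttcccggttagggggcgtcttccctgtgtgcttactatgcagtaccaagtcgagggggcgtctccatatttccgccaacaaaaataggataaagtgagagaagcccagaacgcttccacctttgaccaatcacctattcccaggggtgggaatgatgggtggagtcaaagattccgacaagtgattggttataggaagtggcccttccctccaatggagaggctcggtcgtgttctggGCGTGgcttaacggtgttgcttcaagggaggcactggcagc
Aldh8a1: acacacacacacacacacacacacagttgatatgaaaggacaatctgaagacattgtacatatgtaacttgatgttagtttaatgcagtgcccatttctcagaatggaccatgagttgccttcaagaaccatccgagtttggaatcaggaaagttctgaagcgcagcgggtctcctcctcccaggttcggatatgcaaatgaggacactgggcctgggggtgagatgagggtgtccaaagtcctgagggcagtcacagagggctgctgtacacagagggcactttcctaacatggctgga
Aldh3a2: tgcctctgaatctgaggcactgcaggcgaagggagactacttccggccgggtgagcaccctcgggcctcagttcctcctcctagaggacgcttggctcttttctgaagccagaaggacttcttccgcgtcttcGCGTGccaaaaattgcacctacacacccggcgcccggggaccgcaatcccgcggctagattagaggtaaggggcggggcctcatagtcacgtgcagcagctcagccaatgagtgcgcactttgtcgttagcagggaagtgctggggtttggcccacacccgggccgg
Aldh4a1: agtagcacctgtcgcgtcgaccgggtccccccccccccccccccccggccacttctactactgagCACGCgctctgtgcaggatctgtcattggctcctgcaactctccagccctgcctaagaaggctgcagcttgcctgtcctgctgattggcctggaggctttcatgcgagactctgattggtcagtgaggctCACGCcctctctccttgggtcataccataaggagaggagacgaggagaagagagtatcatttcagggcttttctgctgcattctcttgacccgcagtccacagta

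The core lay 9 bases after the start of *Aldh6a1*, at 1 place before that of *Aldh3a2*, and 185 and 55 bases before that of *Aldh4a1*. The *Aldh8a1* window held none, and neither did the *Aldh6a1* window not shown or those of *Aldh1a1*, *Aldh1a7*, *Aldh1b1* and *Aldh1l1*. Some core was present in 10639 of 32851 windows of all genes (32.4%), against 3 of the 10 windows of the 8 members, *Aldh1a1* and *Aldh6a1* having 2 windows each. A match is a description of letters and not a binding site.

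The vehicle libraries were compared between 2 h and later hours to see what the cultures held before TCDD is considered. At 2 h in the WT label the mitochondrial acetaldehyde dehydrogenase *Aldh2* and the folate enzyme *Aldh1l1* led the family, and by 72 h *Aldh1a1*, which oxidizes retinal to retinoic acid, had taken their place. Between 2 and 120 h, 7 of the 9 members tested fell and *Aldh1a1* and *Aldh3a2* rose, under either label. All 9 passed the test (adjusted p under 0.05 in edgeR's quasi-likelihood test, adjusted by Benjamini-Hochberg over all genes tested, and a change of at least 1.5-fold), where 61.1% of all genes tested passed in the WT label and 61.1% in the PkmΔDRE label. In bulk RNA, fewer hepatocytes and less RNA per hepatocyte cannot be told apart.

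*Aldh1l1*, which turns formyl-tetrahydrofolate into tetrahydrofolate, read 1785, 2280, 2602 and 2642 CPM in the 4 WT vehicle libraries at 2 h and 59.2, 118.25, 189 and 210 CPM at 120 h. In the PkmΔDRE vehicle libraries it read 1748, 2457, 2575 and 3549 CPM at 2 h and 140, 141.1, 207 and 226 CPM at 120 h. No library of 120 h came near one of 2 h, and the log2 fold changes were −4.21 (SE 0.39, adjusted p = 7.42e-06) and −4.06 (SE 0.32, adjusted p = 9.57e-07).

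*Aldh2*, the main acetaldehyde enzyme, read 2656, 2966, 3086 and 3184 CPM in WT vehicle at 2 h, 479, 540, 587 and 649 CPM at 24 h, and 476, 542, 603 and 616 CPM at 120 h. The groups of 24 and 120 h overlapped and both lay far under 2 h, with log2 fold changes against 2 h of −2.63 (SE 0.16, adjusted p = 1.31e-07) and −2.61 (SE 0.18, adjusted p = 9.89e-07). In PkmΔDRE the corresponding log2 fold changes were −2.37 (SE 0.32, adjusted p = 0.000351) and −2.44 (SE 0.31, adjusted p = 3.9e-05).

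*Aldh8a1*, the aminomuconic semialdehyde dehydrogenase of tryptophan breakdown through kynurenine, read 72.985, 80.2, 81.6 and 145 CPM in WT vehicle at 2 h and 1.48, 1.83, 1.93 and 5.61 CPM at 120 h. Its log2 fold change of −5.31 (SE 0.46, adjusted p = 5.26e-06) was the largest fall among the members in the WT label, and in PkmΔDRE it was −4.91 (SE 0.42, adjusted p = 2.67e-06). *Aldh4a1*, which completes proline breakdown to glutamate, fell from 212 ± 43.5 CPM (SD, n = 4) to 15.3 ± 4.94 CPM in WT, and from 216 ± 48.98 CPM to 18.3 ± 3.91 CPM in PkmΔDRE. *Aldh1b1*, a mitochondrial form with activity toward acetaldehyde and retinal, fell from 84.8 ± 7.70 to 6.02 ± 2.91 CPM in WT and from 107.8 ± 28.0 to 4.53 ± 2.00 CPM in PkmΔDRE. *Aldh6a1*, the methylmalonate semialdehyde dehydrogenase of valine and thymine breakdown, fell less far, by 2.42 on the log2 scale in WT (SE 0.37) and by 1.53 in PkmΔDRE (SE 0.32).

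*Aldh1a1* did not follow a straight course. In WT vehicle it read 508, 766, 804 and 940 CPM at 2 h, 168, 170, 235 and 241 CPM at 8 h, and 2877, 3551, 3686 and 3980 CPM at 72 h. These 3 groups did not overlap, and the level at 120 h was 1756, 2370, 2572 and 2936 CPM, above every library of 2 h. At 120 h against 2 h the log2 fold change was 1.47 in WT (SE 0.23, adjusted p = 0.000281) and 1.08 in PkmΔDRE (SE 0.25, adjusted p = 0.00321), while at 24 h it was 0.07 and −0.03 and did not pass.

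*Aldh3a2*, the fatty aldehyde dehydrogenase of the endoplasmic reticulum, had a similar dip and rise. It read 62.8, 82.2, 108.65 and 176 CPM in WT vehicle at 2 h, 45.2, 48.9, 75.45 and 84.1 CPM at 24 h, and 322, 333, 358 and 413 CPM at 120 h. The 24 h libraries overlapped those of 2 h, and those of 120 h stood above both groups. The fall at 24 h passed in WT (log2 fold change −0.99, SE 0.29, adjusted p = 0.0144) and not in PkmΔDRE (−0.92, SE 0.41, adjusted p = 0.108), though without library P172_90 the latter was −1.46 (adjusted p = 0.0106). The rise at 120 h passed under either label, at 1.54 (SE 0.27, adjusted p = 0.000564) and 1.49 (SE 0.19, adjusted p = 4.94e-05).

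*Aldh1a7*, a mouse paralogue of *Aldh1a1* on the same chromosome (19), was lower at 8 h in WT vehicle (67.3 to 93.8 CPM) and back near its 2 h level at 24 h (log2 fold change −0.16 in WT, SE 0.15, adjusted p = 0.377, and −0.23 in PkmΔDRE, SE 0.33, adjusted p = 0.614), and was lower again at 120 h. It read 235, 251, 277 and 328 CPM at 2 h and 50.7, 77.2, 94.5 and 142.6 CPM at 120 h in WT vehicle, groups that did not overlap (log2 fold change −1.78, SE 0.28, adjusted p = 0.000249). Per kilobase of all annotated exons (4.937 kb for *Aldh1a1* and 2.066 kb for *Aldh1a7*), *Aldh1a1* stood at 1.18 times *Aldh1a7* in the median WT vehicle library of 2 h, 0.834 times at 12 h, 17.9 times at 72 h and 12.1 times at 120 h. The PkmΔDRE medians were 1.37, 0.821, 15.6 and 15.2. Reads of these paralogues can be split only where their exons differ, and 151 of the 50-base windows of the *Aldh1a7* exons (7.49%) and 1 of its 100-base windows also occurred in *Aldh1a1*, but no 150-base window did.

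At 24 h, 7 of 9 members tested had fallen in WT vehicle (77.8%, where 47.9% of all genes passed in either direction) and 6 of 9 in PkmΔDRE vehicle (66.7%, where 30.7% of all genes passed). *Aldh6a1* was the weakest of the 6, with a log2 fold change of −1.79 (adjusted p = 0.0234), −1.73 without library P172_89 (adjusted p = 0.0581) and −1.70 without library P172_76 (adjusted p = 0.063). The summed CPM of the 7 hepatocyte markers moved along with these falls, from a median of 146400 CPM at 2 h (117100 to 160600) to 29860 at 24 h (26020 to 38130) and 8890 at 120 h (3298 to 17220) in WT vehicle, and *Cyp2e1*, one of them, was at 0 in 4 libraries. The 5 cholangiocyte markers summed to a median of 86.7 CPM at 2 h (55.8 to 140.8) and 783 CPM at 120 h (581 to 1069), with *Krt19* at 0 in 5 libraries and *Krt7* in 19. Such sums, here and at other hours, follow their highest genes and need not hold for each marker. *Alb* had a median of 23530 CPM over all libraries, and the other hepatocyte markers medians from 96.1 (*Asgr1*) to 2774 CPM (*Apoa1*). Among cholangiocyte markers *Spp1* reached 1204 CPM and *Epcam* at most 6.68 CPM. The part of these shifts in the members' levels was not tested.

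**Figure D1:**
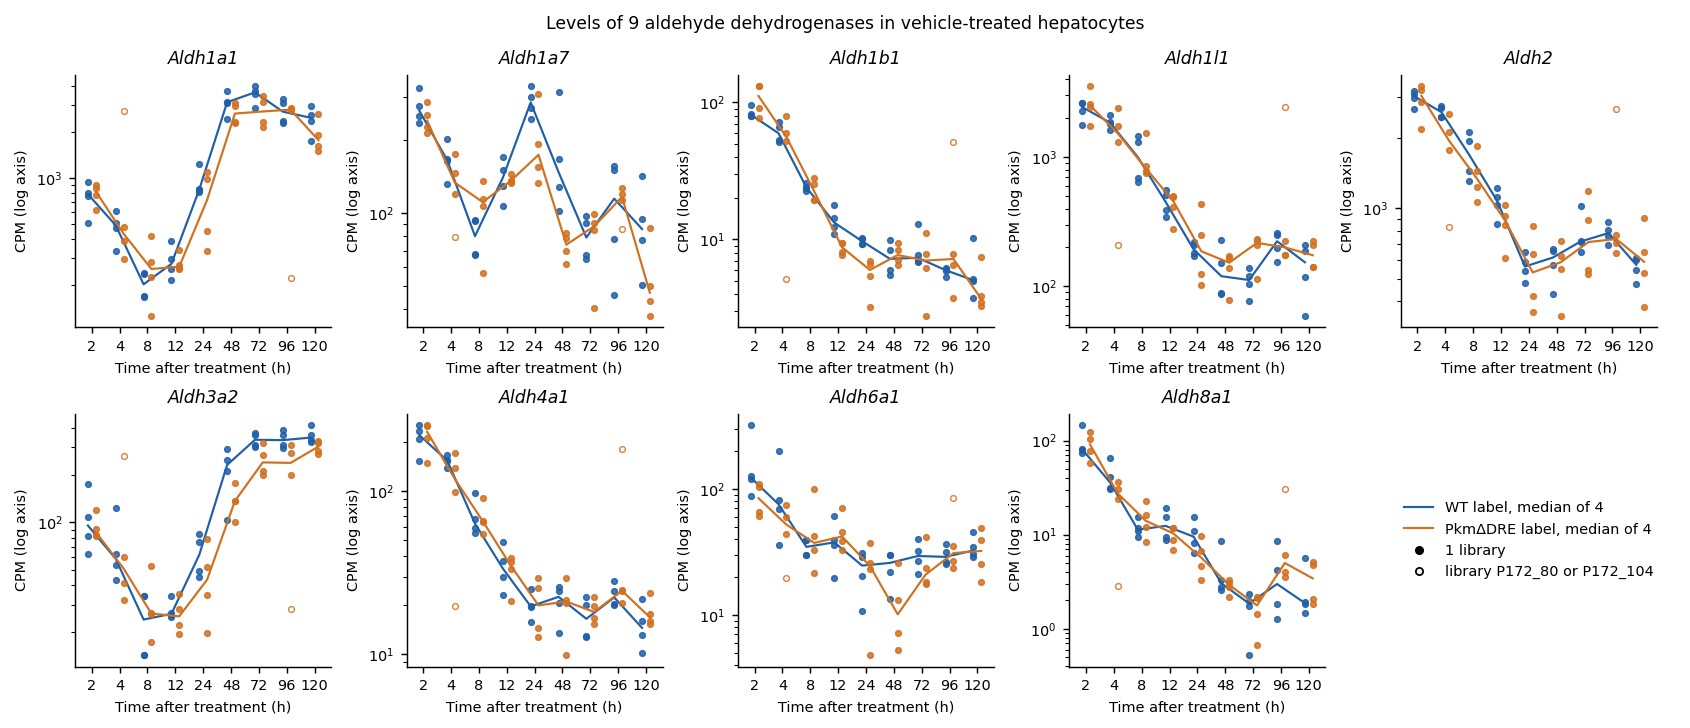
CPM on log axes against hours after treatment for 9 members in vehicle libraries, each point 1 library and each line the median of 4, blue for WT and orange for PkmΔDRE labels, with open circles for libraries P172_80 and P172_104. *Aldh1a1* and *Aldh3a2* dip until 8 to 12 h and end above their start, and the other 7 members end below it.

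CPM per kilobase of exon compares genes only roughly, since the length counts all annotated exons of a gene, used in these cells or not. On this scale the WT order at 2 h was *Aldh2* (580 ± 44.7, SD, n = 4), *Aldh1l1* (515 ± 87.7), *Aldh1a1* (153 ± 36.6), *Aldh1a7* just behind it (SD 19.7), *Aldh4a1* (43.2 ± 8.86), *Aldh1b1* (36.9 ± 3.35), *Aldh6a1* (28.2 ± 18.2), *Aldh8a1* (21.6 ± 7.67), *Aldh3a2* (19.1 ± 8.77) and *Aldh3a1* (0.0331 ± 0.0435). *Aldh2* and *Aldh1l1* lay within 1 SD of each other, as did *Aldh1a1* and *Aldh1a7*, and the members from *Aldh4a1* to *Aldh3a2* formed a run of close neighbours. At 120 h the WT order was *Aldh1a1* (488 ± 100.1), *Aldh2* (109.1 ± 12.5), *Aldh3a2* (63.5 ± 7.23), *Aldh1a7* (44.2 ± 18.7), *Aldh1l1* (31.9 ± 15.2), *Aldh6a1* (6.00 ± 1.28), *Aldh4a1* (3.12 ± 1.01), *Aldh1b1* (2.62 ± 1.27), *Aldh8a1* (0.618 ± 0.442) and *Aldh3a1* (0.0136 ± 0.0171). *Aldh3a2* had moved from the ninth place to the third, and the neighbours *Aldh1a7* and *Aldh1l1*, and *Aldh4a1* and *Aldh1b1*, did not differ beyond their spread.

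*Aldh1a1* held 9.88 ± 1.26% (SD, n = 4) of the summed level per kilobase of the 10 members in WT vehicle at 2 h, 71.2 ± 2.37% at 72 h and 64.7 ± 8.54% at 120 h. The PkmΔDRE shares were 10.4 ± 1.01%, 65.3 ± 7.24% and 60.3 ± 5.99%. *Aldh2* went the other way in WT, from 38.1 ± 2.40% to 15.1 ± 2.16% and 14.7 ± 2.53%. The plain sum of the 10 members fell from a median of 7280 CPM at 2 h to 1993 CPM at 24 h in WT vehicle and stood at 4895 CPM at 72 h and 3714 CPM at 120 h.

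**Figure D2:**
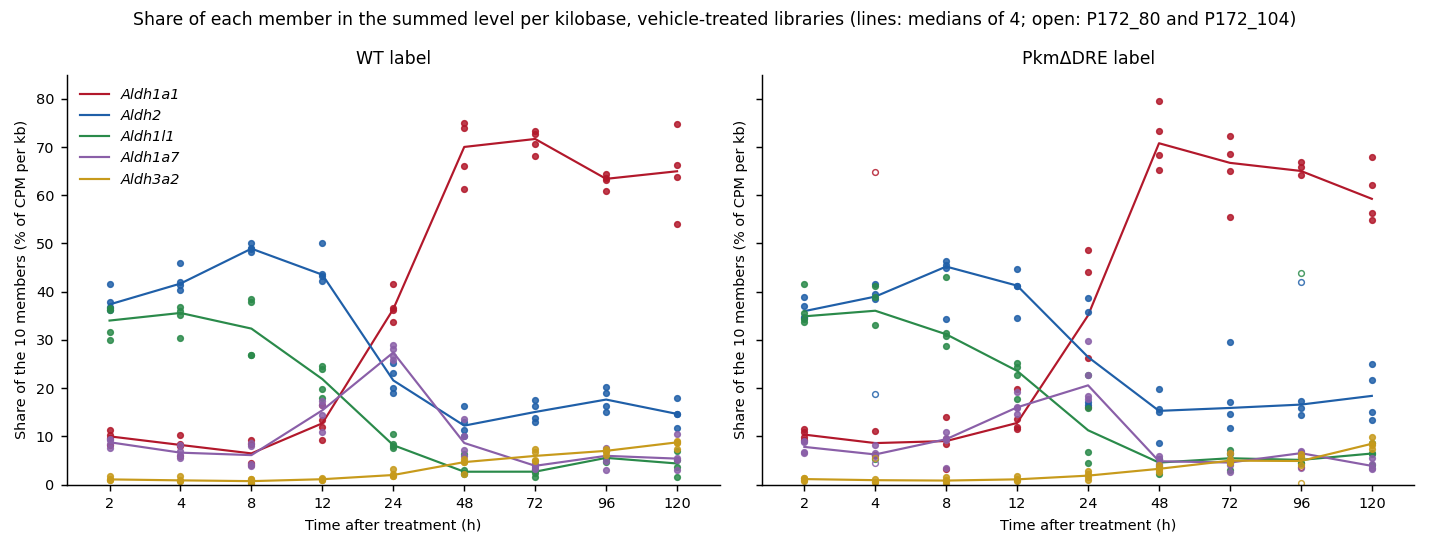
Share of 5 members in the summed CPM per kilobase of all 10 (percent) against hours after treatment in vehicle libraries, WT label on the left and PkmΔDRE label on the right, each point 1 library and each line the median of 4. *Aldh1a1* goes from 9.88% (WT) and 10.4% (PkmΔDRE) of the total at 2 h to 71.2% (WT) and 65.3% (PkmΔDRE) at 72 h, while *Aldh2* and *Aldh1l1* shrink, and the open circles (libraries P172_80 and P172_104) lie far from the other libraries of their hours.

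The genes with the course most like each member, by Pearson's r of log2(CPM + 0.5) over the 36 group means and among 11487 genes, were *Ccnd1* for *Aldh1a1* (r = 0.958), *Gfm2* for *Aldh1a7* (0.889), *Cmbl* for *Aldh1b1* (0.978), *Fah* for *Aldh1l1* (0.995), *Acy3* for *Aldh2* (0.983), *Spred3* for *Aldh3a2* (0.967), *Amdhd1* for *Aldh4a1* (0.986), *Dpyd* for *Aldh6a1* (0.971) and *Baat* for *Aldh8a1* (0.959). *Aldh1a7* had the lowest best match. These values share the groups' hours and libraries and describe a likeness in time course only.

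Averaged over the 9 hours in vehicle, no member passed for a difference between the labels, where 1.2% of 16973 genes did. The difference nearest to passing was *Aldh1a7*, lower in PkmΔDRE by a log2 value of −0.29 (SE 0.10, adjusted p = 0.12 by edgeR's quasi-likelihood test). *Aldh1l1* had a log2 difference of 0.32 (SE 0.17, adjusted p = 0.363), and the other 7 lay between −0.21 and 0.15. Libraries P172_80 and P172_104 belong to these groups, and at 4 h *Aldh1a1* read 298, 391 and 477 CPM in the other PkmΔDRE vehicle libraries and 2754 CPM in library P172_80. Without both libraries the averaged log2 difference was −0.26 for *Aldh1a7* (adjusted p = 0.16) and −0.29 for *Aldh3a2* (adjusted p = 0.132), and again none passed.

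Each group of 4 TCDD libraries was compared with the 4 vehicle libraries of its hour and label, which asks which members respond to AHR activation and when. Of 81 member values in the WT label 4 passed, 3 at 8 h and 1 at 96 h, and none of 81 passed in the PkmΔDRE label. At 8 h in WT 3 of 9 members passed (33.3%), near the 37.4% of all genes that passed there, and at 96 h 1 of 9 (11.1%) against 15.1%. At these hours the members passed no more often than all genes did.

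*Aldh6a1* rose at 8 h in the WT label. It read 29.8, 29.9, 39.4 and 39.5 CPM in vehicle and 55.6, 85.5, 102.2 and 138.3 CPM in TCDD libraries, groups that did not overlap. The log2 fold change was 1.43 (SE 0.24, adjusted p = 0.00139 by edgeR's quasi-likelihood test). Libraries P172_47 and P172_48 of this TCDD group lay slightly nearer to 12 h than to 8 h (r = 0.948 against 0.943, and 0.972 against 0.971), and without both of them *Aldh6a1* still passed (1.17, adjusted p = 0.015). At 96 h it read 25.3, 26.5, 31.3 and 36.6 CPM in vehicle and 32.4, 37.3, 43.8 and 48.1 CPM with TCDD, ranges that overlapped. There the adjusted p was 0.0229 with a log2 fold change of 0.50 (SE 0.15), under 1.5-fold, which became 0.60 without library P172_31 (adjusted p = 0.0134) and 0.59 without library P172_67 (adjusted p = 0.0145).

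In the PkmΔDRE label *Aldh6a1* read 21.4, 32.6, 41.9 and 99.2 CPM in vehicle at 8 h and 42.6, 49.3, 58.02 and 74.3 CPM with TCDD. These ranges overlapped, and the difference between the labels in the response had a log2 value of −1.34 (SE 0.51, adjusted p = 0.292), so that it did not pass. At 2 h the PkmΔDRE values were 60.5, 65.7, 102.7 and 108.9 CPM in vehicle and 106.6, 128.2, 172.02 and 213 CPM with TCDD. They overlapped at 1 pair of libraries, and the log2 fold change was 0.95 (SE 0.29, adjusted p = 0.28).

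*Aldh2* fell at 8 h in the WT label, from 1304, 1449, 1932 and 2114 CPM in vehicle to 747, 867, 1057 and 1123 CPM with TCDD. No TCDD library reached the lowest vehicle library, and the log2 fold change was −0.88 (SE 0.19, adjusted p = 0.00377). The lowest values, 747 and 867 CPM, belong to libraries P172_47 and P172_48, and without them it was −0.67 (adjusted p = 0.0572), so that the call was lost. *Aldh2* was falling in these cultures, and the WT vehicle libraries of 12 h held 858, 1034, 1119 and 1219 CPM. The groups were also apart at 4 h, with 2452, 2456, 2696 and 2729 CPM against 1556, 1651, 1843 and 1959 CPM, but at 4 h in WT 0% of all genes passed and *Aldh2*, with −0.61 (SE 0.13), had an adjusted p of 0.286. At 96 h it read 699, 760, 806 and 869 CPM in vehicle and 587, 589, 642 and 692 CPM with TCDD, a smaller difference without overlap (−0.26, adjusted p = 0.0367, under 1.5-fold).

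In PkmΔDRE at 8 h *Aldh2* read 1061, 1237, 1437 and 1846 CPM in vehicle and 1108, 1151, 1189 and 1899 CPM with TCDD. The ranges covered each other, and the label difference in the response was 0.67 (SE 0.29, adjusted p = 0.295) at 8 h and 0.97 (SE 0.41, adjusted p = 0.526) at 4 h, neither passing. At 4 h it was 0.74 without library P172_80 (adjusted p = 0.716), the PkmΔDRE response of *Aldh2* being 0.37 with and 0.11 without that library. No member passed for a label difference in response at any hour, where 0% of all genes did so at 2, 4, 8, 12, 24, 96 and 120 h, 0.00715% at 48 h and 0.00695% at 72 h. By unadjusted p under 0.05 that count was 1 of 9 members at 4 h and 2 at 8 h, where 8.98% and 15.9% of all genes were under it. Without a filter on low counts *Aldh6a1* passed at 8 h (log2 difference −1.29, adjusted p = 0.0107), the share of all genes passing without the filter not being given.

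*Aldh1b1* fell at 8 h in the WT label, from 22.6, 23.8, 24.1 and 25.7 CPM to 12.0, 13.1, 18.5 and 18.9 CPM. The groups were apart, with a log2 fold change of −0.66 (SE 0.20, adjusted p = 0.0186), but without TCDD library P172_46 it was −0.55 (adjusted p = 0.0561) and without TCDD library P172_47 −0.58, under 1.5-fold. Without libraries P172_47 and P172_48 together it was −0.68 (adjusted p = 0.0657) and did not pass. At 120 h it read 3.72, 4.96, 5.10 and 10.3 CPM in vehicle and 1.74, 2.53, 3.04 and 3.23 CPM with TCDD. These groups were apart too (log2 fold change −1.19, SE 0.34, adjusted p = 0.121), and *Aldh1b1* did not pass among the genes of 120 h, of which 1.46% did.

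*Aldh1l1* and *Aldh4a1* leaned the same way at 8 h in WT without passing. *Aldh1l1* read 640, 683, 1316 and 1465 CPM in vehicle and 488, 604, 651 and 940 CPM with TCDD (log2 fold change −0.65, SE 0.28, adjusted p = 0.0774). *Aldh4a1* read 55.1, 59.5, 67.2 and 96.9 CPM and 40.6, 42.3, 46.9 and 66.1 CPM (−0.54, adjusted p = 0.055). Either pair of ranges overlapped, and each gene passed once library P172_11, P172_12 or P172_46 was left out, at −0.81, −0.83 and −0.86 for *Aldh1l1* and −0.62, −0.65 and −0.73 for *Aldh4a1*.

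Between the WT groups of 8 h the share of read pairs assigned to no gene was 25.1 to 30.1% in vehicle and 25.7 to 48.0% with TCDD, the highest being library P172_45, and the number of genes detected was 15401 to 17203 and 18337 to 20626. The hepatocyte markers summed to 72160 to 84690 CPM in vehicle and 61700 to 70140 CPM with TCDD, and the 6 Kupffer cell and macrophage markers to 281 to 509 CPM and 152 to 282 CPM. The part of these differences in the members' values at 8 h was not tested. In PkmΔDRE at 8 h 0.106% of all genes passed.

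*Aldh8a1* was higher with TCDD late in the culture. At 96 h in the WT label it read 1.28, 1.81, 4.17 and 8.52 CPM in vehicle, the highest being library P172_31, and 9.89, 10.1, 11.3 and 17.6 CPM with TCDD. The groups were apart, and the log2 fold change was 1.68 (SE 0.49, adjusted p = 0.0275). Without library P172_31, whose *Cyp1a1* went against its label, together with libraries P172_21, P172_40 and P172_64, it was 2.38 (adjusted p = 0.00227). The call was lost without library P172_30 (1.46, adjusted p = 0.0617), P172_32 (1.69, adjusted p = 0.0798), P172_65 (1.69, adjusted p = 0.063) or P172_68 (1.43, adjusted p = 0.0673). It was also lost without libraries P172_65 and P172_66 together (1.85, adjusted p = 0.115), TCDD libraries that lay nearer to 120 h than to 96 h (r = 0.982 against 0.970, and 0.983 against 0.982).

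In the PkmΔDRE label *Aldh8a1* read 0.677, 1.42, 2.12 and 2.19 CPM in vehicle at 72 h and 3.60, 3.66, 7.65 and 16.7 CPM with TCDD. The groups were apart, yet the log2 fold change of 2.25 (SE 0.55) had an adjusted p of 0.0911, where 1.13% of all genes passed, and without library P172_97 it was 2.43 (adjusted p = 0.0291). The highest TCDD values, 7.65 and 16.7 CPM, belong to libraries P172_134 and P172_135. Both lay slightly nearer to 96 h than to 72 h (r = 0.988 against 0.984, and 0.977 against 0.972). Vehicle library P172_99 lay slightly nearer to 48 h (r = 0.962 against 0.960). No fit left out libraries P172_134 and P172_135 together. At 120 h *Aldh8a1* read 1.85, 2.08, 4.79 and 5.08 CPM in vehicle and 7.33, 8.07, 10.4 and 14.02 CPM with TCDD. They were apart again, at 1.49 (SE 0.37, adjusted p = 0.146), where 0.633% of all genes passed.

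At 96 h the PkmΔDRE vehicle values of *Aldh8a1* were 3.54, 3.98, 6.03 and, in library P172_104, 30.9 CPM, and the TCDD values 9.67, 12.0, 18.7 and 33.01 CPM. With library P172_104 the log2 fold change was 0.61 (adjusted p = 0.827, with 0.0793% of all genes passing). Without it the groups were apart and the log2 fold change was 1.97 (adjusted p = 0.0297), the share of all genes passing in that fit not being given. Fitted over all 72 libraries of the label without libraries P172_80 and P172_104, *Aldh8a1* passed at 72 h (2.22, adjusted p = 0.000986) and 96 h (2.02, adjusted p = 0.0125). The 72 h value kept libraries P172_134 and P172_135, which lay nearer to 96 h.

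At 120 h in WT it read 1.48, 1.83, 1.93 and, in library P172_36, 5.61 CPM in vehicle and 3.56, 4.55, 4.70 and 4.86 CPM with TCDD, and the log2 fold change was 0.70 (adjusted p = 0.425), or 1.33 without library P172_36 (adjusted p = 0.0491). Over the hours, *Aldh8a1* had a positive log2 fold change at 8 of 9 in the WT label and 7 of 9 in the PkmΔDRE label, from −0.47 at 12 h to 2.25 at 72 h in the latter. *Aldh6a1* was positive at 8 of 9 hours in WT and 5 of 9 in PkmΔDRE. Without libraries P172_80 and P172_104 either gene was positive at 6 of 9 hours in PkmΔDRE, *Aldh8a1* turning from 0.34 to −0.05 at 4 h and *Aldh6a1* from −0.41 to 0.20 at 96 h. The markers moved beside *Aldh8a1* at 96 h in WT: the hepatocyte list summed to 7423 to 14010 CPM in vehicle and 13630 to 15720 CPM with TCDD, and the cholangiocyte list to 609 to 1331 CPM and 372 to 781 CPM. In PkmΔDRE at 72 h the hepatocyte list gave 9140 to 19900 and 12010 to 25880 CPM and the cholangiocyte list 941 to 1052 and 407 to 706 CPM. Their part in the *Aldh8a1* values was not tested.

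**Figure D3:**
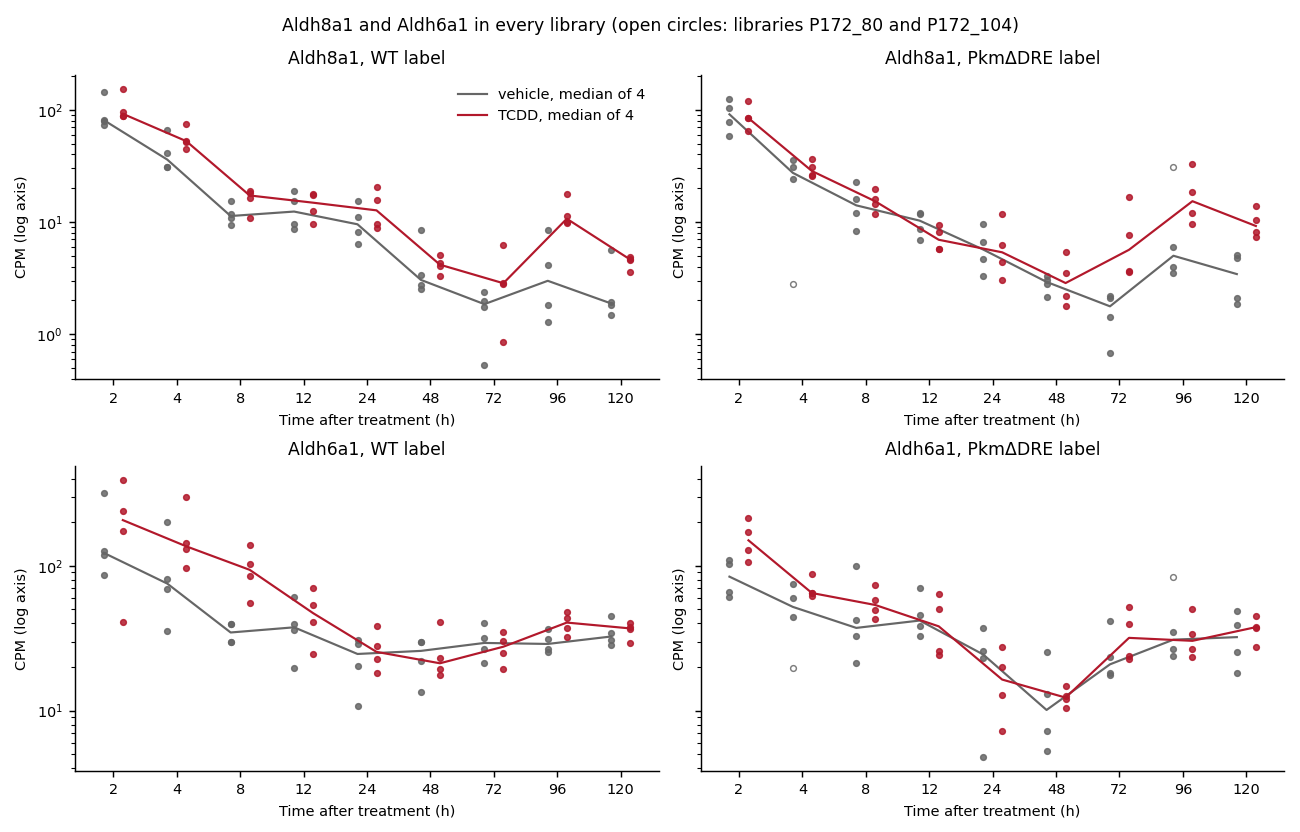
CPM on log axes against hours after treatment for *Aldh8a1* (top) and *Aldh6a1* (bottom) under the WT (left) and PkmΔDRE (right) labels, grey for vehicle and red for TCDD, each point 1 library and each line the median of 4. The TCDD points of *Aldh8a1* lie above all vehicle points at 96 h in WT and at 72 and 120 h in PkmΔDRE, and those of *Aldh6a1* at 8 h in WT.

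*Aldh1a1* was lower with TCDD at all 9 hours in the PkmΔDRE label and at 7 of 9 in the WT label, with no single hour passing. Without libraries P172_80 and P172_104 it was still negative at all 9 hours in PkmΔDRE. At 24 h in WT it read 809, 836, 847 and 1243 CPM in vehicle and 392, 545, 666 and 774 CPM with TCDD, groups that did not overlap (log2 fold change −0.57, SE 0.21, adjusted p = 0.354, with 0.373% of all genes passing at 24 h). At 12 h in PkmΔDRE it read 256, 258, 271 and 338 CPM and 106.3, 113.9, 195 and 257 CPM, which overlapped by 1 library (−0.78, adjusted p = 0.508, with 0.024% passing). Libraries P172_121 and P172_123 of this TCDD group lay slightly nearer to 8 h than to 12 h (r = 0.965 against 0.963, and 0.962 against 0.961). At 96 h in PkmΔDRE the vehicle values were 224 CPM in library P172_104 and 2758, 2824 and 2852 CPM in the others, and the TCDD values 1392, 1460, 1728 and 2141 CPM, and without library P172_104 the log2 fold change was −0.79 (adjusted p = 0.0559).

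The remaining members gave no passing hour. *Aldh3a2* with TCDD read 352, 419, 428 and 454 CPM at 96 h in WT against 296, 309, 356 and 384 CPM in vehicle (log2 fold change 0.36, adjusted p = 0.015, under 1.5-fold). In PkmΔDRE its TCDD libraries were above all vehicle libraries at 96 h (359, 367, 436 and 453 CPM against 201, 276 and 309 CPM, and 28.1 CPM in library P172_104) and at 120 h (338, 374, 378 and 382 CPM against 270, 284, 321 and 326 CPM). At 72 h it had a log2 fold change of 0.46 (adjusted p = 0.458), and 0.61 without library P172_97 (adjusted p = 0.0308), with libraries P172_134 and P172_135 kept in the TCDD group. *Aldh1a7* was lower at 12 h (89.97, 91.4, 98.4 and 120.9 CPM against 133.3, 135.15, 135.9 and 144.7 CPM in vehicle) and higher at 48 h (90.4, 99.3, 109.75 and 122.7 CPM against 61.4, 69.5, 78.5 and 83.05 CPM) in PkmΔDRE. Neither *Aldh1a7* difference passed (adjusted p = 0.508 and 0.642).

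In the hours not yet given, the share of all genes that passed in the WT label was 0% at 2 h and also at 72 h (0%), 0.0321% at 12 h and 0.00763% at 48 h. In the PkmΔDRE label it was 0% at 2 h and 4 h, 0.016% at 24 h and 0.404% at 48 h. No member passed there. By unadjusted p under 0.05 the WT counts were 4 of 9 members at 4 h (*Aldh1b1*, *Aldh1l1*, *Aldh2* and *Aldh4a1*, all lower) and 0 at 2, 12, 48 and 72 h, where 17.1% of all genes were under it at 4 h and 1.37%, 2.63%, 2.57% and 2.06% at the others. For PkmΔDRE that count was 1 member at 2, 48 and 120 h, 2 members at 12 and 72 h, and 0 at the other hours. The share of all genes under it was 14.2%, 6.62% and 7.44% at the first 3 of these hours, so that 1 of 9 members is close to the background. It was 9.53% at 12 h and 10.7% at 72 h, so that 2 of 9 members lies above it, as does 4 of 9 at 4 h in WT. These differences from the background were not tested.

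**Figure D4:**
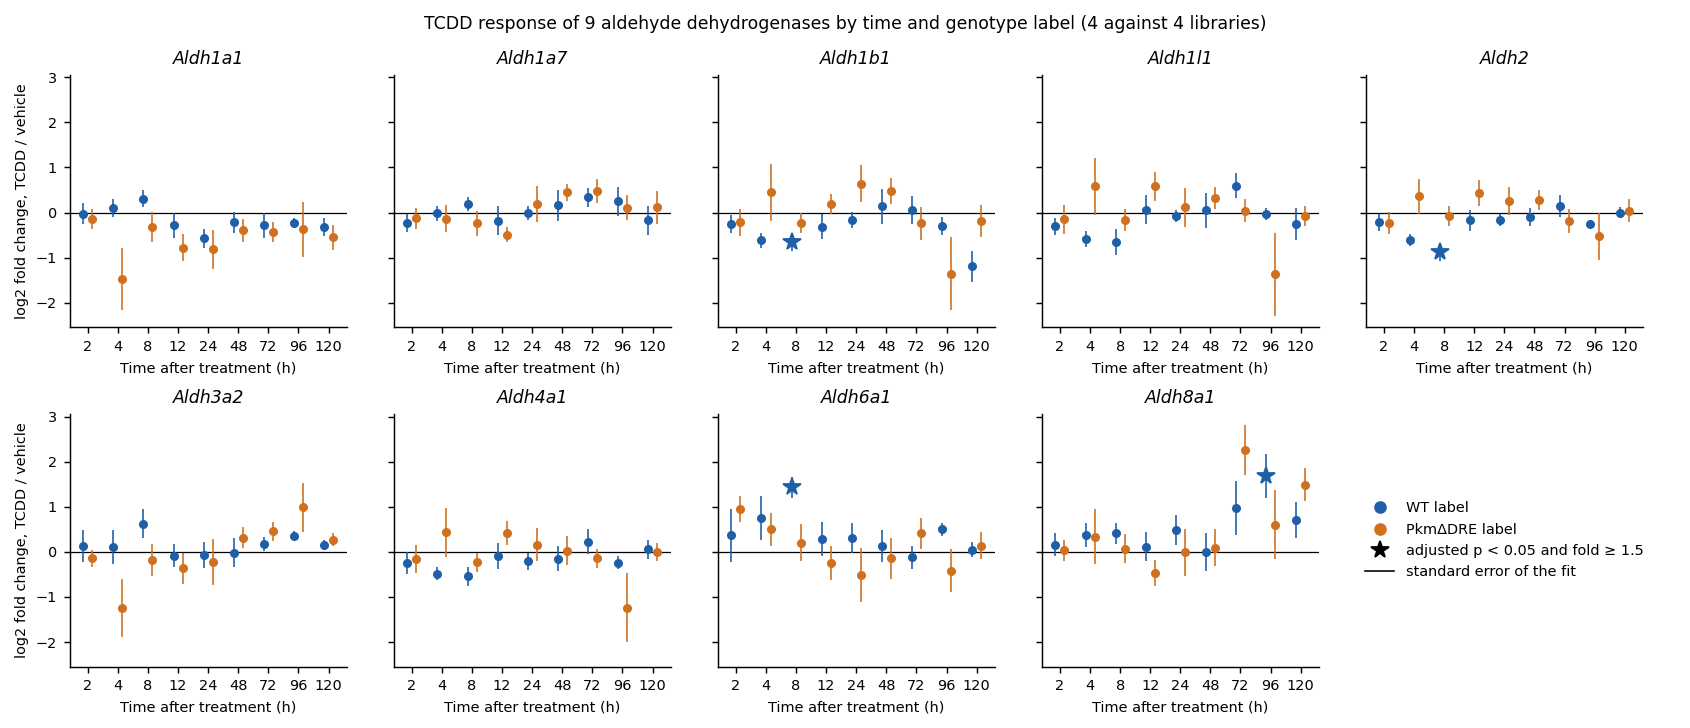
Log2 fold change (TCDD over vehicle) against hours after treatment for 9 members, blue for WT and orange for PkmΔDRE labels, 4 against 4 libraries at each point, bars giving the standard error of the fit and stars the values that passed. The 4 stars are *Aldh1b1* (−0.66) and *Aldh2* (−0.88) below 0 and *Aldh6a1* (1.43) above 0 at 8 h, and *Aldh8a1* (1.68) at 96 h, all in WT, and the wide bars at 4 and 96 h in PkmΔDRE belong to the groups with libraries P172_80 and P172_104.

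With all 72 libraries of a label in 1 fit, *Aldh1a1* passed in PkmΔDRE (log2 fold change −0.60, SE 0.15, adjusted p = 0.00802), 1 of 9 members (11.1%) where 2.12% of all genes passed. Without libraries P172_80 and P172_104 it was −0.50 (adjusted p = 0.000593), under 1.5-fold, and *Aldh8a1* then passed instead (0.59, adjusted p = 0.00423), having had 0.47 (adjusted p = 0.139) with them. The *Aldh1a1* call was also lost without hour 4 or hour 12 and on removing replicate number 1, 3 or 4, numbers that only name 1 library of each group. In the WT label no member passed, where 9.17% of all genes did, but 6 of 9 had an unadjusted and an adjusted p under 0.05 with changes under 1.5-fold, where 46.8% of all genes had an unadjusted p under 0.05. These were *Aldh1b1* (−0.41, adjusted p = 0.000663), *Aldh2* (−0.29, adjusted p = 0.000709), *Aldh4a1* (−0.23, adjusted p = 0.0309) and *Aldh1a1* (−0.21, adjusted p = 0.0288), which were lower, and *Aldh8a1* (0.50, adjusted p = 0.00461) and *Aldh6a1* (0.37, adjusted p = 0.0251), which were higher. Without libraries P172_21, P172_31, P172_40 and P172_64 *Aldh8a1* passed in WT (0.65, adjusted p = 0.000134).

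No member passed for a label difference in the averaged response, where 0.45% of all genes did. The values nearest to passing by p were −0.38 for *Aldh1a1* (SE 0.17, adjusted p = 0.311) and 0.32 for *Aldh2* (SE 0.13, adjusted p = 0.263). Without libraries P172_80 and P172_104 they were −0.32 for *Aldh1a1* (adjusted p = 0.259), 0.36 for *Aldh2* (adjusted p = 0.0769) and 0.46 for *Aldh1b1* (adjusted p = 0.0773), by edgeR's quasi-likelihood test. With all libraries *Aldh8a1* had a difference of −0.02 (SE 0.23), with the WT and PkmΔDRE responses at 0.50 and 0.47. The median over the 9 members tested was −0.17 in WT and −0.03 in PkmΔDRE, beside 0.01 and −0.03 over all genes.

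*Aldh3a1* could not be tested. It had a read pair in 14 of 36 WT TCDD libraries, 9 of 36 WT vehicle libraries, 7 of 36 PkmΔDRE TCDD libraries and 9 of 36 PkmΔDRE vehicle libraries, and reached at most 0.498 CPM, from 9 pairs. Its sums over libraries were scaled by plain totals of pairs, without TMM factors. On that scale the level of *Aldh3a1* was 0.0384 CPM in WT vehicle (95% exact Poisson interval 0.0253 to 0.0558) and 0.0629 in WT TCDD (0.0450 to 0.0857). It was 0.0332 in PkmΔDRE vehicle (0.0208 to 0.0502) and 0.0381 in PkmΔDRE TCDD (0.0251 to 0.0555). The intervals overlapped and cover counting error only. Overlap of intervals is not a test, and the difference between these sums was not tested. A count of 0 allows 0.0977 to 0.221 CPM (3 pairs) in a library, depending on its depth and again without TMM factors.

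Among the 11 other *Aldh* genes none passed for TCDD averaged over the hours, of 9 tested in WT and 8 in PkmΔDRE. In WT vehicle at 120 h against 2 h, 3 of 7 tested rose (*Aldh1l2*, the mitochondrial counterpart of *Aldh1l1*, with 4.39 on the log2 scale, *Aldh3b1* with 1.36 and *Aldh18a1*, a proline synthesis enzyme, with 0.86) and 4 fell, *Aldh9a1* most (−2.76). Their median was −1.80 beside 0.16 over all genes. *Aldh1l1* and *Aldh1l2* thus had opposite signs along the culture.

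The alcohol dehydrogenases and aldehyde oxidases, which make or also oxidize aldehydes, had 3 of 6 genes tested higher with TCDD averaged over the hours and 0 lower under each label, where 7.79% (WT) and 1.06% (PkmΔDRE) of all genes were higher. *Adh7* had log2 fold changes of 2.60 in WT and 2.55 in PkmΔDRE, *Adh1* of 1.203 and 1.41, and *Aox3* of 0.96 and 0.69. Among 8 retinoid genes around *Aldh1a1*, *Rdh10*, which makes retinal, rose (0.84 in WT and 0.75 in PkmΔDRE) and 0 fell.

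For the amino acid and folate routes, 0 of 10 folate genes around *Aldh1l1*, 0 of 10 valine and thymine genes around *Aldh6a1* and 0 of 6 proline genes around *Aldh4a1* passed under either label. At 8 h in WT, where *Aldh6a1* rose, 3 of the 10 valine and thymine genes rose (*Hibch* 1.12, *Dbt* 1.11 and *Dpyd* 1.06) and 3 fell (*Bckdha* −0.77, *Acad8* −0.65 and *Upb1* −0.61), beside 23.8% of all genes that rose and 13.6% that fell at that hour. At 96 h in WT, where *Aldh8a1* rose, *Tdo2*, the first enzyme of the kynurenine route and 1 of 7 listed genes, rose by 1.85 on the log2 scale. At that hour 10.1% of all genes rose and 5.0% fell. Averaged over the hours *Tdo2* rose (0.71) and *Haao* fell (−0.63) in WT among 7 kynurenine genes, and 0 passed in PkmΔDRE. Of 8 fatty alcohol and phytol genes around *Aldh3a2*, *Cyp4f14* and *Cyp4f15* fell in WT (−0.65 and −0.61) and *Cyp4f14* in PkmΔDRE (−0.86). As a check of the treatment, 8 of 8 genes of an AHR battery rose in WT and 7 of 8 in PkmΔDRE in the averaged comparison.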

How the data were processed

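The authors trimmed paired reads with Trimmomatic 0.39, checked them with FastQC 0.11.3 and aligned them with STAR 2.7, per the submitters' processing notes, to GRCm39. They deposited 1 table of whole-number counts per library (STAR gene counts, not normalized), of which the unstranded column was used. Unstranded counting cannot tell a gene from an antisense partner, and overlapping genes held at most 0.349% of the counts (*Bbof1* at *Aldh6a1*). Lines naming no gene (16.8% to 48.0% of pairs) were left out. Symbols and exon lengths came from GENCODE gene models of GRCm38, and promoter windows from RefSeq GRCm38.p6. No coordinates of GRCm39 are printed.

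Counts were tested with edgeR 4.0.16 in R 4.3.3 (TMM, filterByExpr with a minimum count of 10 and total of 15, robust quasi-likelihood test). Benjamini-Hochberg adjustment ran over all genes tested, and a gene passed at an adjusted p under 0.05 and a change of at least 1.5-fold. Comparisons were TCDD against vehicle by label and hour and averaged over hours, the label difference in these responses and in vehicle, and 24 or 120 h against 2 h in vehicle. All 10 members are named, other genes of a list only where they passed, and look-alikes by the highest r (the first of 3). Scripts were tested on simulated data. Alternatives were DESeq2 1.42.0, no filter, 1 fit per label, a covariate for the share of pairs on no gene, 1 surrogate variable (sva 3.50.0), no fold threshold, and leaving out libraries or hours, and leaving out libraries P172_80 and P172_104, or P172_21, P172_31, P172_40 and P172_64, or P172_47 and P172_48, or P172_65 and P172_66, was chosen after seeing the data. The members and lists were chosen with earlier results of these data known. No 2 libraries were duplicates.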

Additional observations from a re-analysis of the deposited data

Results flagged for a closer look

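In 29 of 324 member groups of 4 libraries, the highest or lowest library lay further from the others than Dixon's 95% limit allows. Chance flags about 1 in 20 groups, or 16.2 of 324. Library P172_104 (PkmΔDRE vehicle, 96 h) accounted for 6 of the 29 and library P172_80 (PkmΔDRE vehicle, 4 h) for 2, and these are the libraries whose profiles lay nearest to each other's labelled hours, though that link was not tested.

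Library P172_104 held 224 CPM of *Aldh1a1*, where the other 3 libraries held 2758 to 2852, and it was the highest for *Aldh1b1* (51.6 CPM, next 7.87), *Aldh1l1* (2449, next 224), *Aldh2* (2658, next 769), *Aldh4a1* (181, next 24.7) and *Aldh8a1* (30.9, next 6.03). Library P172_80 was the highest for *Aldh1a1* (2754 CPM, next 477) and *Aldh3a2* (262, next 60.6).

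Of the other 21, library P172_71 (WT TCDD, 120 h) gave 3, being the highest for *Aldh1a1* (2623 CPM, next 1707) and the lowest for *Aldh1a7* (49.4, next 91.1) and *Aldh1l1* (87.4, next 128.9). Library P172_50 (WT TCDD, 12 h) was the highest for *Aldh1l1* (831 CPM) and *Aldh2* (1368). Library P172_114 (PkmΔDRE TCDD, 4 h) was the highest for *Aldh1a7* (154 CPM) and *Aldh3a2* (63.7), and library P172_116 of the same group for *Aldh6a1* (87.8).

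For *Aldh8a1* the highest libraries were P172_39 (WT TCDD, 2 h, 155 CPM), P172_03 (WT vehicle, 2 h, 145), P172_36 (WT vehicle, 120 h, 5.61) and P172_21 (WT vehicle, 48 h, 8.52), the last being one whose *Cyp1a1* went against its label. For *Aldh1b1* they were P172_105 (PkmΔDRE vehicle, 120 h, 7.51 CPM), P172_68 (WT TCDD, 96 h, 6.15) and P172_27 (WT vehicle, 72 h, 12.95), while library P172_126 (PkmΔDRE TCDD, 24 h, 4.66) was the lowest. Library P172_17 (WT vehicle, 24 h) was the highest for *Aldh1a1* (1243 CPM), library P172_84 (PkmΔDRE vehicle, 8 h) for *Aldh1l1* (1535), library P172_58 (WT TCDD, 48 h) for *Aldh1l1* (246) and library P172_117 (PkmΔDRE TCDD, 8 h) for *Aldh2* (1899). Library P172_65 (WT TCDD, 96 h), in which 63.3% of gene pairs lay on 1 strand, was the lowest for *Aldh1a7* (108.8 CPM).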

How the results depend on the processing

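No paired analysis was possible because the labels give no replicate number or isolation that would pair libraries across groups, and replicate numbers used here follow the order of deposit and only name a library. For TCDD by hour, 4 WT values passed, 7 without a fold threshold, 2 without libraries P172_47 and P172_48 (*Aldh2* and *Aldh1b1* at 8 h lost), 3 without libraries P172_65 and P172_66 (*Aldh8a1* lost) and 3 to 6 with 1 library left out. In PkmΔDRE 0 passed, and 1 did with 1 fit per label, 2 with that fit without libraries P172_80 and P172_104, 2 with DESeq2, 3 with no filter on low counts, 1 without libraries P172_80 and P172_104, and 0 to 2 with 1 library left out. Averaged over hours, WT gave 0, 6 without a fold threshold and 1 without libraries P172_21, P172_31, P172_40 and P172_64. PkmΔDRE gave 1 (*Aldh1a1*), 0 without 4 h, 0 without 12 h, 0 to 1 with a replicate number left out (lost in 3 of 4), and 1 without libraries P172_80 and P172_104 (*Aldh8a1*). The label difference by hour gave 0, or 1 with no filter (*Aldh6a1* at 8 h), and averaged 0 to 1 with a replicate number left out (*Aldh1b1*, 0.63, adjusted p = 0.022, without replicate 4). Replicate 4 includes libraries P172_80 and P172_104. Vehicle levels along the culture kept counts of 7, 9 and 9, and 6 (5 to 7 with 1 library left out) in PkmΔDRE at 24 h. The share of all genes that passed under each alternative is not given here. These counts therefore show how far the calls depend on a setting, and not whether the members passed more often than other genes.

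*Aldh6a1* averaged in WT reversed to −0.0613 with 1 surrogate variable, and *Aldh8a1* at 96 h in PkmΔDRE to −0.29 with a covariate for pairs assigned to no gene. *Aldh8a1* at 96 h in WT had adjusted p = 0.15 with no filter and 0.147 with that covariate. The causes were not tested. The depth, down to 13588848 pairs in a library, limits *Aldh3a1*, which was not tested.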

Other observations

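Other routes around the members changed along the culture in WT vehicle libraries between 2 and 120 h by edgeR's quasi-likelihood test, in which 61.1% of all genes passed, 26.9% lower and 34.2% higher. All 7 kynurenine genes fell, as did 8 of 10 valine and thymine genes, 6 of 8 fatty alcohol and phytol genes and 5 of 6 alcohol dehydrogenases and aldehyde oxidases. Among 6 proline genes 4 fell and *Pycr1*, a proline synthesis enzyme, rose, and among 10 folate genes 8 fell and 2 rose. Between the genotype labels in vehicle, averaged over the hours, *Prodh2*, which starts hydroxyproline breakdown, was higher in PkmΔDRE by 0.96 on the log2 scale. *Cyp4f14* was higher there by 0.92, and *Acmsd*, the step before *Aldh8a1* in the kynurenine route, had a difference of −0.61. In that comparison 1.2% of 16973 genes passed, and genes of the lists are named only where they passed. Libraries P172_80 and P172_104 were in the fit. The differences of *Prodh2*, *Cyp4f14* and *Acmsd* without these libraries are not given, so they may depend on them.

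The members also differed from each other in course. Over the 36 group means *Aldh1a1* and *Aldh1l1* had a Pearson's r of −0.616, while *Aldh2* and *Aldh4a1* had 0.974, values that share the same hours and libraries and carry no test.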
